A study of Mus musculus with 18 samples.

Results

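The genes that encode the subunits of the proteasome, its assembly chaperones, its activators and its inhibitor were followed in RNA from spermatogenic cells of adult mice. Members were chosen by name: protein-coding genes in the GENCODE vM1 annotation of mm9 whose symbols begin with Psma, Psmb, Psmc, Psmd, Psme, Psmf or Psmg followed by a number, without Psmc3ip and Psme4. The rule gave 48 genes of 37131 annotated ones, and no measured value entered it. Of these, 44 passed the filter on low values, as did 14610 genes of the whole annotation.

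The proteasome is the protease that degrades proteins tagged with ubiquitin. Its barrel-shaped core is built from alpha rings, which form the gate, and beta rings, which hold the cutting sites. A regulatory cap sits on the barrel. The base of the cap contains ATPases that unfold the substrate, and the lid removes the ubiquitin chain. Germ cells of the testis make their own form of 1 alpha subunit, Psma8, a close relative of Psma7, and spermatids lose much of their cytoplasm and many of their proteins as they elongate.

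All groups were wild type mice labelled C57BL/6, of the C57BL/6 J background in the study's methods, and described as adult, and no group was treated or mutant. Pachytene spermatocytes, which are in meiotic prophase, round spermatids, which are the haploid cells after meiosis, and elongating spermatids, which reshape into sperm, were separated by sedimentation from pooled testes in the presence of cycloheximide. Cytoplasm of each cell type was run on a sucrose gradient, and large RNA was taken from the light fractions that hold ribonucleoprotein particles (RNP) and from the heavy fractions that hold polysomes. There were 3 libraries for every cell type in either fraction, 18 in all. The elongating spermatids were the least pure of the 3 preparations by the study's own estimate from morphology, and the sources used here do not state which libraries came from the same purification. Nothing says that the replicates came from separate animals, so the p-values measure only the spread between these libraries, which may be technical. In such bulk samples, fewer cells of a type and less RNA per cell cannot be told apart.

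Values are FPKM, fragments per kilobase of transcript relative to all mapped fragments, summed over the assembled spliced transcripts of a gene and scaled between libraries as set out in the account of the processing. Because FPKM is a level per length, levels can be compared between genes. Differences are on the log2(scaled FPKM + 1) scale, which understates the change of genes with low values. A member was called when its adjusted p from limma, Benjamini-Hochberg corrected over all 14610 genes, was under 0.05. Read counts were not used here, so the depth behind each value and its counting interval are not given.

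Before the subunits were compared, the labels were set against marker genes. In the round libraries numbered 2, the summed level of 12 round spermatid markers was 109 in the RNP and 145 in the polysome library, against 864 to 1459 in the other 4 round libraries. Summed over 19 annotated Sertoli cell markers, the level was 2525 and 2807 in the same 2 libraries, against 112 to 349 in the other 4. The pachytene libraries numbered 2 and the third pachytene polysome library also had high Sertoli sums, 3176, 1976 and 1821, and all 19 markers were listed in these 5 libraries. Their sums over 8 spermatogonial markers were 402 and 377 in round and 204, 172 and 164 in pachytene cells. The other round libraries had 49.8 to 167 and the other pachytene ones 55.9 to 72.5. Summed over 11 annotated pachytene markers, the round libraries numbered 2 had 1504 and 1749, against 670 to 1122 in the other 4. In the 6 elongating libraries the Sertoli sum was 89.4 to 137, with 12 to 14 markers listed. The part of Sertoli cells, spermatogonia or other cells in the results below was not tested. The class medians over the 3 cell types and for elongating minus pachytene, the called members, Psma7 and the share of Psma8 are given with and without the 4 pachytene and round libraries numbered 2, a choice made after seeing the data. Summed over 14 elongating spermatid markers, the level was 17662 to 50755 in elongating RNP and 10312 to 15786 in elongating polysomes, above the 537 to 8503 of all other libraries.

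The subunits of the core were present at unequal levels although each ring contains its subunits in equal number. Averaged over the 18 libraries, the alpha subunits ranged from 26.7 for Psma1 to 129.7 for Psma6. The beta subunits ranged from 33.8 for Psmb3 to 277 for Psmb4. These sums depend on how the transcripts were assembled, because Cufflinks had split some into separate pieces and a sum over pieces of 1 transcript counts it more than once. Psmb4 was split in 16 of 18 libraries. When pieces were weighted by their length, Psmb6 at 130.2 had the highest mean of the beta ring, Psma6 had 287, and the lowest means were those of Psma2 at 13.4 and Psmb3 at 19.3. The Psma6 mean rests on the third elongating RNP library, at 3228 on this scale, while its values elsewhere were 46.8 to 268.

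In the base, the ATPase Psmc6 had the lowest mean of its class, 22, and the ATPase Psmc3 had the highest of all members, 333. The scaffold Psmd1 and its partner Psmd2, which carries ubiquitin receptors and their cargo, had means of 72.9 and 134. In the lid, Psmd14, the enzyme that removes ubiquitin from the substrate, had the lowest mean at 22 and Psmd8 the highest at 80.2. The means of the assembly chaperones went from 4.05 for Psmg3 to 27.3 for Psmg1. On this summed scale Psmg1 was above 4 of the standard subunits (Psma1, Psma7, Psmc6 and Psmd14). With length weighting the lowest lid mean was that of Psmd3 at 17.3, and Psmd8 stayed highest at 116. Psmd1, split in 10 libraries, had a length-weighted mean of 29.4. Psmg1, split in 4, stayed the highest chaperone at 18.3, just below Psmc6 at 18.5.

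**Figure D1:**
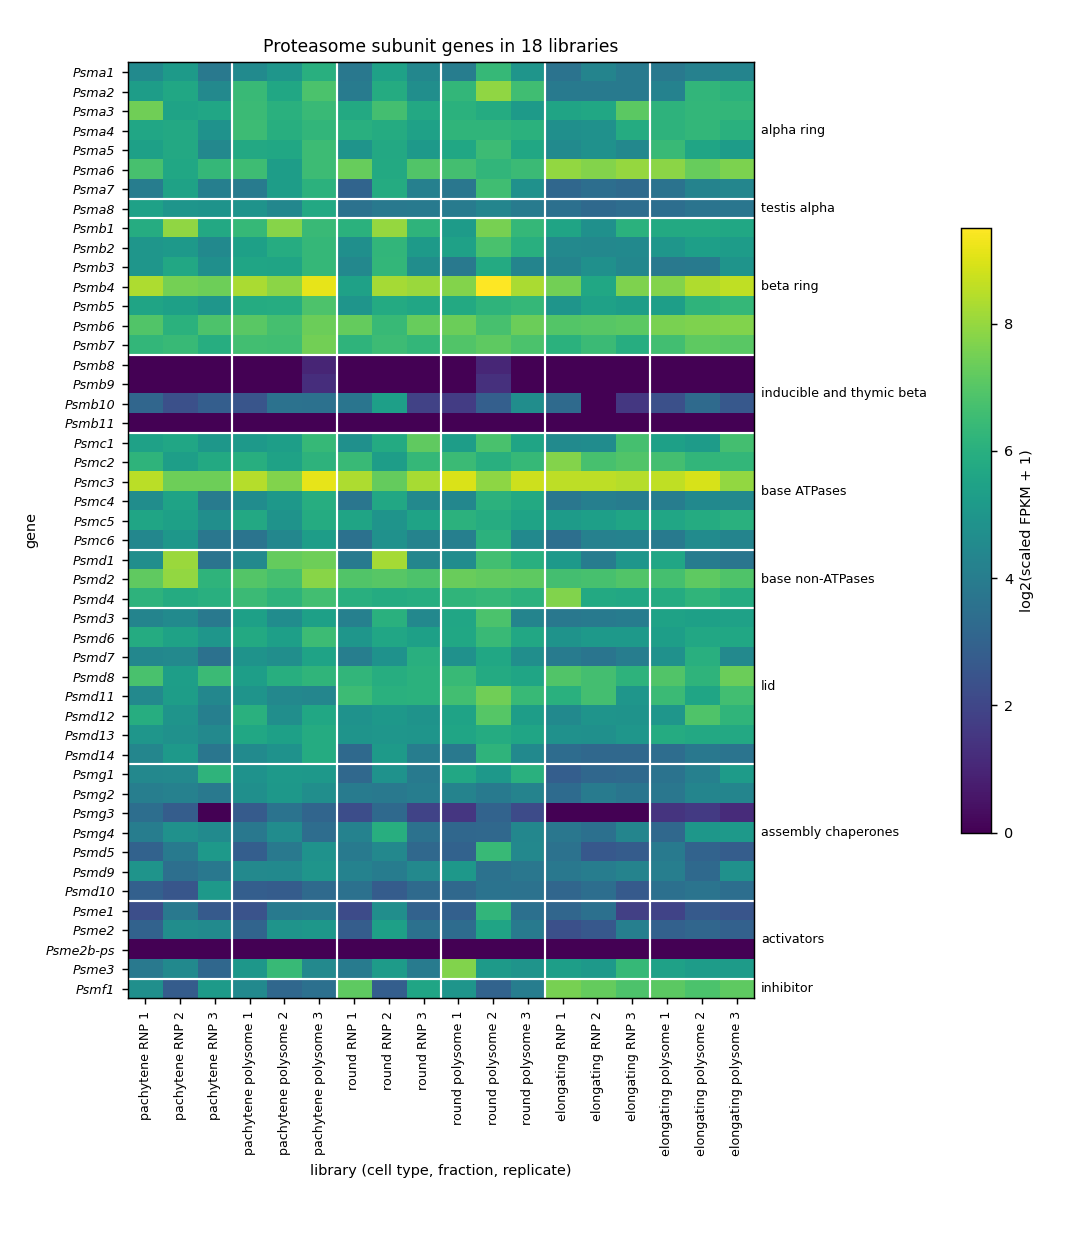
Each row is 1 of the 48 genes, grouped by role, each column is 1 of the 18 libraries, and colour gives log2(scaled FPKM + 1). Psmc3 is bright in every library (150 to 570 scaled FPKM), while Psmb8, Psmb9, Psmb11 and Psme2b-ps are dark almost throughout.

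Of the catalytic beta subunits, the 3 of the standard core were abundant in every library. Psmb6, which carries the caspase-like site, ranged from 66.6 to 209.6, and Psmb7, which carries the trypsin-like site, ranged from 58.9 to 179.7. Psmb5, the chymotrypsin-like subunit, measured 46.0, 41.1 and 31.0 in pachytene RNP and 57.0, 58.7 and 114 in pachytene polysomes. In round spermatids it measured 30.1, 54.4 and 48.9 in RNP and 53.0, 71.4 and 79.3 in polysomes. In elongating spermatids it measured 29.8, 42.1 and 38.4 in RNP and 38.6, 71.5 and 80.2 in polysomes. The 2 fractions of Psmb5 did not overlap in pachytene spermatocytes and did so in both kinds of spermatid.

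The immune-inducible counterparts of these subunits were scarce. Psmb8 was listed in 2 libraries only, at 0.961 in the third pachytene polysome library and at 1.01 in the second round polysome library. Psmb9 was listed in the same 2 libraries, at 1.39 and 1.52. These are 2 of the 5 libraries with high Sertoli sums, and the part of those cells was not tested. Psmb10 ranged from 0 to 39.6, the highest value being that of the second round RNP library. Together the 3 inducible subunits made up 0 to 14.8% of the catalytic FPKM of a library, and at most 6.37% without the second round RNP library. Psmb11, the subunit of thymic cortical epithelium, and Psme2b-ps, a copy of an activator gene, were listed at 0 in all 18 libraries.

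The study separated RNP from polysomes to ask which mRNAs were stored and which were engaged with ribosomes. Proteasome mRNAs lay mostly toward the polysomes: over the 3 cell types, 37 of 44 members had a positive polysome minus RNP difference, with a median of 0.41, against 0.12 for all genes tested. The core median was 0.70 over 14 genes, 11 of them positive, and the lid median was 0.65 over 8 genes, 7 of them positive. The base stood closer to all genes, at 0.30 over 9 genes with 8 positive, and the 7 assembly chaperones had a median of 0.29. Without the 4 pachytene and round libraries numbered 2 the medians of core, lid and base were 0.80, 0.70 and 0.40. For that setting the median of all genes is not given. The medians of the classes describe the groups and were not tested against each other.

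The order of core, lid and base was alike in pachytene and elongating cells. In pachytene spermatocytes the core median difference was 0.68, that of the lid 0.57 and that of the base 0.26, where all genes had 0.18. In round spermatids the medians were 0.59, 0.66 and 0.29, where all genes had 0.07. In elongating spermatids they were 0.72, 0.71 and 0.14, where all genes had 0.02. Round spermatids thus had the lid above the core.

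As levels, the median core subunit stood at 42.1 ± 11.3 in pachytene RNP and 76.5 ± 16.1 in pachytene polysomes (mean of the library medians and SD, n = 3). In round spermatids it stood at 49.3 ± 15.3 and 74.9 ± 16.7, and in elongating spermatids at 34.2 ± 11.8 and 66.6 ± 6.01. The median lid subunit was at 25.1 ± 6.48 and 39.7 ± 13.3 in pachytene spermatocytes, at 35.3 ± 6.73 and 55.9 ± 19.4 in round spermatids, and at 27.3 ± 2.60 and 47.9 ± 5.70 in elongating spermatids. The median base subunit was at 42.5 ± 9.80 and 58.8 ± 19.5, then 53.7 ± 7.49 and 69.7 ± 8.13, then 42.6 ± 8.01 and 56.6 ± 8.27 in the same order. The RNP level was below the polysome level in every one of these 9 pairs of means, but the SDs of several pairs, such as those of the base in pachytene spermatocytes, reached into each other.

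Few single members passed the test between fractions. Within pachytene spermatocytes no member was called higher or lower in polysomes, where 0.116% of all genes were called higher and 0.0616% lower. No member was called in round spermatids, against 0.103% and 0.0684% of all genes, nor in elongating spermatids, against 0.246% and 0.198%. At an unadjusted limma p under 0.05, 5, 4 and 9 members passed in these 3 cell types, all of them higher in polysomes, and 7.29%, 6.58% and 9.12% of all genes passed in either direction. Over the 3 cell types, 2 members were called higher and 0 lower, against 0.979% and 0.76% of all genes, and 15 members (34.1%) passed the unadjusted threshold, again all higher, against 16.9% of all genes in either direction.

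The libraries of the 2 fractions did not overlap for a number of members. Polysome values were all above RNP values for 8 of 44 members in pachytene spermatocytes, where 6.58% of all genes did so, and for 0 in the other direction, where 3.8% did. In round spermatids 10 members did so, against 4.11% of all genes, and 0 lay the other way, against 4.33%. In elongating spermatids 18 members did so, against 14.3% of all genes, and 1 member, Psmc2, lay the other way, against 9.69%. Psmb7, Psmd13 and the alpha subunit Psma4, singled out after the values were seen, were among these members in all 3 cell types. With length weighting the fractions overlapped in pachytene spermatocytes for Psmb7 and Psmd13 and in round spermatids for Psma4. Psma4 was split into pieces in 8 libraries, of which elongating RNP 3 and round RNP 1 were the only RNP ones.

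The first of the 2 called members was the lid subunit Psmd13 (ENSMUSG00000025487.8, mm9 chr7:148067867-148084542, plus strand). It measured 31.0, 27.3 and 21.1 in pachytene RNP and 50.1, 40.9 and 56.0 in pachytene polysomes. It measured 29.2, 30.6 and 29.8 in round RNP and 46.9, 56.9 and 46.5 in round polysomes. The elongating spermatid libraries held 27.1, 26.4 and 30.6 in RNP and 55.8, 51.7 and 52.5 in polysomes. Every one of the 9 polysome values was above every one of the 9 RNP values. The difference over the 3 cell types was 0.83 (SE 0.16, limma adjusted p = 0.0171), and it was 0.87, 0.72 and 0.91 in pachytene, round and elongating cells. Without the 4 libraries numbered 2 it was 0.86 (adjusted p = 0.00442).

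The other was the alpha subunit Psma2 (ENSMUSG00000015671.9, mm9 chr13:14705521-14719674, plus strand). It measured 38.0, 49.6 and 21.4 in pachytene RNP and 84.9, 49.5 and 110.0 in pachytene polysomes. It measured 14.3, 56.9 and 25.1 in round RNP and 76.5, 241 and 94.0 in round polysomes. Its values in elongating spermatids were 14.2, 14.2 and 13.9 in RNP and 17.5, 74.6 and 67.2 in polysomes. The fractions overlapped in pachytene spermatocytes only. The difference was 1.61 (SE 0.35, limma adjusted p = 0.0299). Leaving out any 1 of 10 libraries ended the call (elongating polysome 2 or 3, pachytene polysome 1 or 3, round polysome 3, elongating RNP 1 or 2, pachytene RNP 3, round RNP 1 or 3), with a highest adjusted p of 0.0725. Without the 4 libraries numbered 2 the difference was 1.81 (adjusted p = 0.0106).

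The results of both of these genes depended on how assembled transcripts were counted. The Psma2 transcript was split into pieces in 6 of 9 polysome libraries and in 0 of 9 RNP libraries. Psmd13 was not split in any library. Length-weighted values multiply each FPKM by transcript length, add unspliced transcripts, divide by the longest annotated length and have their own scale factors. With them, the Psma2 difference was 0.71 (limma adjusted p = 0.306) and that of Psmd13 was 0.52 (adjusted p = 0.0707). Among all member values, 111 of 791 (14%) came from split transcripts. The share was 19.4% in round polysomes and 12.1% in round RNP, 18.9% in elongating polysomes and 12.5% in elongating RNP, and 10.4% and 10.7% in pachytene polysomes and RNP. With length weighting the median fraction difference over the 3 cell types was 0.46 for the core, 0.37 for the lid and 0.12 for the base. No median of all genes on that scale is given here, so these are not set against genes at large.

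Members with larger fraction differences that did not pass the test are given as values. Over the 3 cell types the difference was 1.08 for the beta subunit Psmb4 (SE 0.43, limma adjusted p = 0.221) and 1.05 for the lid subunit Psmd3 (SE 0.33, adjusted p = 0.118). Only in round RNP 1 and elongating RNP 2 was Psmb4 not split, and its values there were its lowest, 42.1 and 49.4. With length weighting it measured 99.9, 90.2 and 75.9 in pachytene RNP and 96.7, 89.9 and 194 in pachytene polysomes. In elongating spermatids the length-weighted values were 70.5, 49.8 and 73.2 in RNP and 79.1, 114 and 123 in polysomes. At the other end, the inhibitor Psmf1 had a difference of -0.63 (SE 0.50, adjusted p = 0.551), the chaperone Psmg4 had -0.31 (adjusted p = 0.71) and the alpha subunit Psma6 had -0.20 (adjusted p = 0.748). Psmd3 in elongating spermatids measured 12.9, 13.8 and 14.7 in RNP and 43.1, 41.4 and 42.1 in polysomes, and its difference there was 1.54 (SE 0.57, adjusted p = 0.403). Psmd3 was split into pieces in all 3 of these polysome libraries and in none of these RNP libraries, and with length weighting the difference was 0.46. Without the 4 libraries numbered 2 its difference over the 3 cell types was 1.18 and passed (adjusted p = 0.0096), and with length weighting of all libraries it was 0.38 (adjusted p = 0.405).

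**Figure D2:**
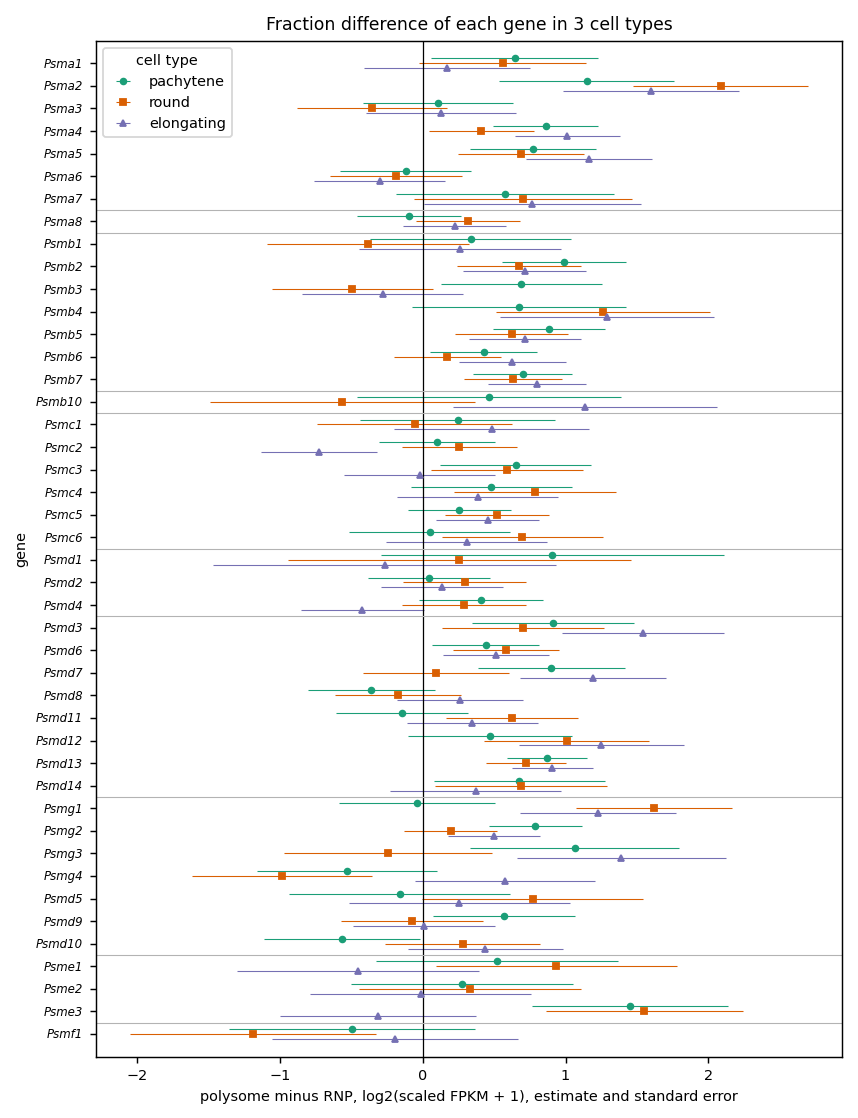
Polysome minus RNP difference in log2(scaled FPKM + 1) for each of the 44 members tested, with a point and its standard error for each of the 3 cell types, grouped by role. Most points lie right of 0 (35, 33 and 34 of 44 members in pachytene, round and elongating cells), while the standard errors of many members reach 0.

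Whether the fraction difference itself changed between neighbouring stages was tested as an interaction. No member was called between pachytene spermatocytes and round spermatids, against 0.0137% of all genes, and 1 member, the chaperone Psmg1, passed an unadjusted limma p under 0.05 (difference of differences 1.66, SE 0.77), as did 2.42% of all genes. Its transcripts were split into pieces in pachytene RNP 3 and in round polysome 1 and 3. No member was called between round and elongating spermatids, against 0.0274% of all genes, and 0 members passed the unadjusted threshold there, against 2.81% of all genes. The largest differences of differences in that step were 1.70 for Psmb10 (SE 1.31) and -1.87 for the activator Psme3 (SE 0.97). Of the libraries in this step, Psmb10 was split into pieces in round polysome 3 and elongating polysome 2 and 3. Psme3 was split in round polysome 1.

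Between pachytene spermatocytes and elongating spermatids, single members were called in both directions, about as often as genes at large. With both fractions averaged, 4 of 44 members were called higher in elongating spermatids, against 10.3% of all genes, and 3 were called lower, against 6.08%. At an unadjusted limma p under 0.05, 14 members (31.8%) passed, against 32.8% of all genes. The 4 were the inhibitor Psmf1, the alpha subunit Psma6, the lid subunit Psmd11 and the base ATPase Psmc2. The 3 were Psma8 and the core assembly chaperones Psmg1 and Psmg3. The median of all 44 members was -0.30, with 31 negative, against 0.00 for all genes. The core had a median of -0.45 with 2 of 14 genes positive, the chaperones -0.54 with 1 of 7 positive, the base -0.03 and the lid 0.05. Without the 4 libraries numbered 2, the medians were -0.41 for the core, -0.13 for the base and -0.05 for the lid. For that setting the median of all genes is again not given. Markers of somatic cells moved in the same comparison, in both directions. Of 19 tested Sertoli markers 13 were called lower in elongating cells (median -2.66), with sums of 571 to 3176 in the pachytene and 89.4 to 137 in the elongating libraries. Of 8 Leydig markers 7 were called lower (median -2.09), with sums of 68.6 to 172 and 9.52 to 34.7. Between 2 and 6 of the 8 Leydig markers were listed in an elongating library. Of 6 peritubular markers 2 were called higher and 0 lower (median 0.69), and of 10 immune markers 4 were called higher and 0 lower (median 0.77). The part of somatic cells in the values of the members was not tested.

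The same comparison within a fraction gave fewer calls. In RNP, 0 members were called higher and 1 lower, against 2.29% and 0.63% of all genes. In polysomes, 1 was called higher and 1 lower, against 2.65% and 1.28%. The comparisons of elongating with pachytene cells and those with both fractions averaged, 5 in all, were added after the values had been seen.

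**Figure D3:**
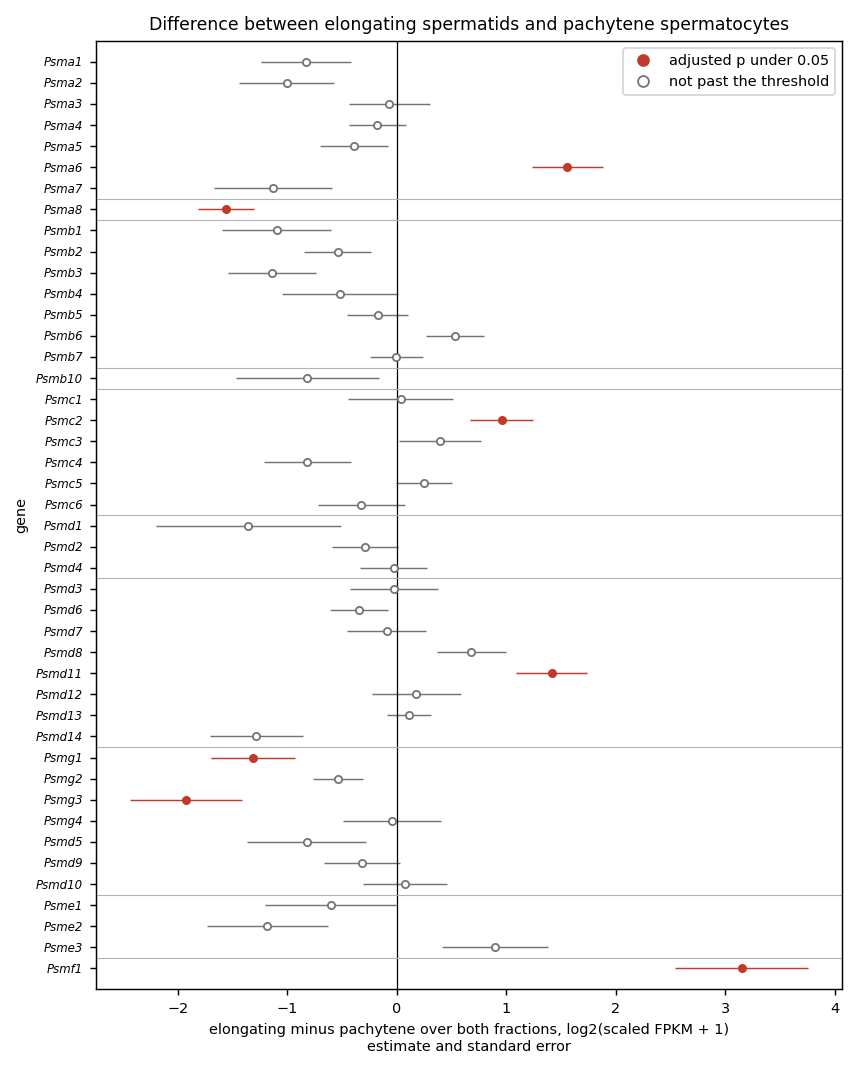
Elongating minus pachytene difference over both fractions in log2(scaled FPKM + 1) for the 44 members, with standard errors, filled where the adjusted p was under 0.05. The 4 called members on the right are Psma6, Psmc2, Psmd11 and Psmf1 (0.96 to 3.15), and the 3 on the left are Psma8, Psmg1 and Psmg3 (-1.92 to -1.31).

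Between neighbouring stages within a fraction no member was called. From pachytene spermatocytes to round spermatids in RNP, 0% of all genes were called in either direction. Psma8 had the lowest difference there, -1.33 (SE 0.36, limma adjusted p = 0.435), and Psmd11 the highest, 1.49 (SE 0.46, adjusted p = 0.649). In polysomes no member was called, against 0.0205% of all genes higher and 0.0753% lower, and Psmd11 had the highest difference, 2.25 (SE 0.46, adjusted p = 0.0862). The lowest differences in polysomes were -1.18 for Psmb3 (SE 0.56, adjusted p = 0.749), -0.93 for Psmg3 and -0.92 for Psma8.

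From round to elongating spermatids no member was called in RNP, against 0.329% of all genes higher and 0.0753% lower, nor in polysomes, against 0.281% and 0.0205%. The inhibitor Psmf1 had the highest difference in both, 2.02 in RNP (SE 0.86, limma adjusted p = 0.4) and 3.02 in polysomes (SE 0.86, adjusted p = 0.164). The lowest were -2.47 for Psmg3 in RNP (SE 0.73, adjusted p = 0.206) and -1.86 for the activator Psme1 in polysomes (SE 0.85, adjusted p = 0.351). Over these 2 steps and 2 fractions, 2, 3, 5 and 5 members passed an unadjusted limma p under 0.05 (4.55%, 6.82%, 11.4% and 11.4% of the 44), as did 5.79%, 6.67%, 11.4% and 13.9% of all genes. With both fractions averaged, Psmd11 was called higher in round spermatids than in pachytene spermatocytes (0.0411% of all genes were called higher and 0.144% lower), and Psmf1 was called higher in elongating than in round spermatids (2.96% higher and 0.445% lower).

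Psma8 encodes the alpha subunit that takes the place of Psma7 in the germ cell proteasome. It measured 42.9, 30.1 and 28.3 in pachytene RNP (33.8 ± 7.95, SD, n = 3) and 28.3, 20.3 and 51.6 in pachytene polysomes (33.4 ± 16.2). The round spermatid libraries held 10.9, 13.3 and 13.6 in RNP (12.6 ± 1.48) and 14.6, 18.9 and 14.5 in polysomes (16 ± 2.52). In elongating spermatids it measured 10.3, 8.52 and 9.47 in RNP (9.44 ± 0.907) and 9.73, 11.7 and 12.2 in polysomes (11.2 ± 1.32). Every pachytene library was above every spermatid library, and the spermatid groups lay close to each other.

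Psma8 fell between pachytene and elongating cells by 1.56 on the log2 scale over both fractions (SE 0.26, limma adjusted p = 0.00136). The difference was -1.71 in RNP (SE 0.36, adjusted p = 0.0215) and -1.40 in polysomes (SE 0.36, adjusted p = 0.0424). The call over both fractions held under every alternative, with a highest adjusted p of 0.00522, and without the 4 libraries numbered 2 the difference was -1.74 (adjusted p = 0.000752). Within a fraction it was lost when 1 library was left out: elongating RNP 1, 2 or 3 or pachytene RNP 2 in RNP (highest adjusted p 0.0709), and elongating polysome 1, 2 or 3 or pachytene polysome 1 or 3 in polysomes (highest adjusted p 0.173). The step from pachytene spermatocytes to round spermatids was -1.13 over both fractions and did not pass (adjusted p = 0.107), whereas without the 4 libraries numbered 2 it was -1.39 and passed (adjusted p = 0.0232). The polysome minus RNP difference over the 3 cell types was 0.15 (SE 0.21, adjusted p = 0.767).

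The assembled Psma8 transcripts had a length of 4126 to 7039 bases in pachytene polysomes, above all other libraries. They had 2172 to 3299 bases in pachytene RNP and 1625 to 3343 bases in the spermatid libraries, which overlapped. With length weighting, which credits this length, the step from pachytene spermatocytes to round spermatids over both fractions was -1.73 (limma adjusted p = 0.00101), past the threshold.

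Its somatic counterpart Psma7 (ENSMUSG00000027566.8, mm9 chr2:179771078-179777138, minus strand) varied more between replicates. It measured 15.4, 43.5 and 16 in pachytene RNP and 14.5, 37.7 and 67.9 in pachytene polysomes. Its values in round spermatids were 7.43, 55.8 and 16.5 in RNP and 12.5, 94.4 and 27.0 in polysomes. The elongating spermatid libraries held 8.06, 9.93 and 8.80 in RNP and 11.3, 17.8 and 19.7 in polysomes. Its 5 highest values were in the 5 libraries with the high Sertoli sums, and the part of those cells was not tested. The elongating minus pachytene difference over both fractions was -1.13 (SE 0.54, limma adjusted p = 0.156), and without the 4 libraries numbered 2 it was -0.85 (adjusted p = 0.185).

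Psma8 made up a share of the summed FPKM of Psma7 and Psma8 that was 73.5, 40.9 and 63.9% in pachytene RNP and 66.2, 35 and 43.2% in pachytene polysomes. In round spermatids the share was 59.5, 19.3 and 45.2% in RNP and 53.8, 16.7 and 34.9% in polysomes. In elongating spermatids it was 56.2, 46.2 and 51.8% in RNP and 46.3, 39.6 and 38.3% in polysomes. All groups overlapped, and the lowest shares were those of the round libraries numbered 2. Length weighting moved the shares up: they were 70.9 to 88% in pachytene RNP, 76.3 to 89% in pachytene polysomes, 30.8 to 75.5% in round RNP, 37.3 to 71.7% in round polysomes, 60.6 to 72.5% in elongating RNP and 55.8 to 66.5% in elongating polysomes. On that scale pachytene polysomes lay above both other polysome groups without overlap.

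The 5 comparisons of this share were made with two-sided exact permutation tests, and none passed. Polysomes were lower than RNP by 9.17 percentage points over the 3 cell types (written as polysome minus RNP, -9.17, exact permutation p = 0.1805, adjusted p = 0.667). Round minus pachytene was -18.1 points in RNP (exact permutation p = 0.3) and -13.0 points in polysomes (exact permutation p = 0.4), both with an adjusted p of 0.667. Elongating minus round was 10.1 points in RNP (exact permutation p = 0.6) and 6.24 points in polysomes (exact permutation p = 0.7), both with an adjusted p of 0.7. With 3 libraries against 3 the smallest p such a test can give is 0.1. Without the round libraries numbered 2, the last 2 differences turned to -0.919 and -2.99 points. With length weighting, round minus pachytene in polysomes was -26.1 points, at the smallest exact permutation p of 0.1.

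**Figure D4:**
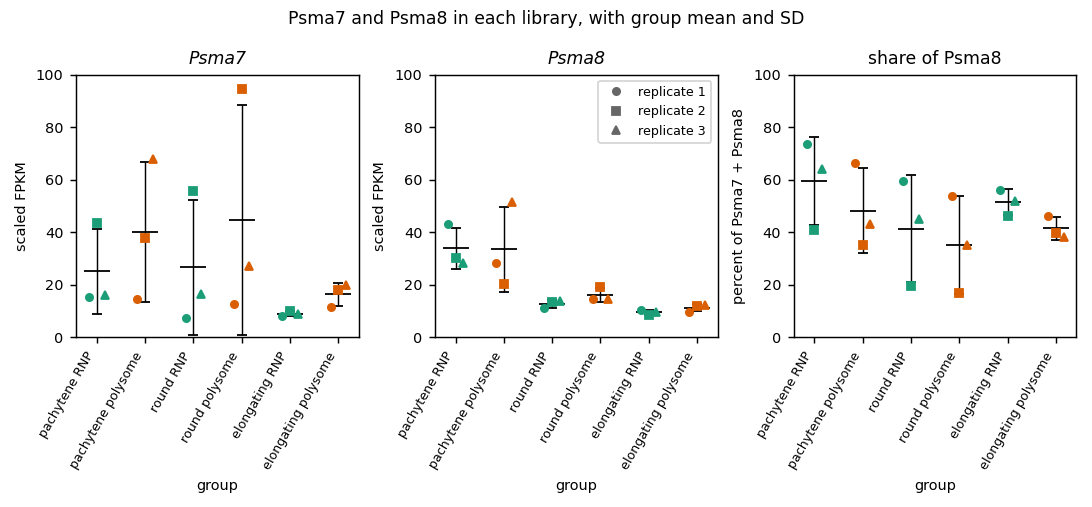
Scaled FPKM of Psma7 and of Psma8, and the share of Psma8 in their sum in percent, in each of the 18 libraries by group, with markers for replicates and black bars for the mean and SD. Psma8 is 20.3 or more in every pachytene library and 18.9 or less in every spermatid library, while Psma7 spreads from 7.43 to 94.4 within round spermatids.

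The alpha subunit Psma6 (ENSMUSG00000021024.8, mm9 chr12:56485209-56519441, plus strand) went the other way from most of the core. It measured 106, 49.0 and 79.4 in pachytene RNP and 93.2, 37.7 and 90.7 in pachytene polysomes. In round spermatids it measured 155, 53.1 and 119 in RNP and 99.6, 75.7 and 88.1 in polysomes. Its values in elongating spermatids were 246, 210.5 and 252 in RNP and 227, 156 and 196 in polysomes. The lowest elongating library, at 156, was just above the highest of the other 12, at 155.

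The elongating minus pachytene difference of Psma6 over both fractions was 1.56 (SE 0.32, limma adjusted p = 0.00548). It was 1.65 in RNP (adjusted p = 0.0621) and 1.47 in polysomes (adjusted p = 0.08), and elongating minus round over both fractions was 1.18 (adjusted p = 0.0579). The call held under every alternative, with adjusted p-values between 0.000501 and 0.0488. Without the 4 pachytene and round libraries numbered 2 the difference was 1.2 (adjusted p = 0.00156).

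The inhibitor Psmf1 (ENSMUSG00000032869.9, mm9 chr2:151541548-151569922, minus strand), which binds the end of the core barrel, had the largest positive difference of all members. It measured 25.7, 5.72 and 35.2 in pachytene RNP and 21.6, 8.12 and 10.3 in pachytene polysomes. The round spermatid libraries held 142, 6.23 and 47.5 in RNP and 30.4, 7.19 and 15.4 in polysomes. In elongating spermatids it measured 189, 152 and 115 in RNP and 138, 112 and 141 in polysomes. The elongating libraries were all above the pachytene ones, and in RNP they overlapped with the round ones.

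Psmf1 rose between pachytene and elongating cells by 3.15 over both fractions (SE 0.61, limma adjusted p = 0.00368) and by 3.30 in polysomes (SE 0.86, adjusted p = 0.0433). In RNP the difference was 3.0 (adjusted p = 0.0688). From round to elongating spermatids over both fractions it was 2.52 (SE 0.61, adjusted p = 0.0347), and without the 2 round libraries numbered 2 it was 1.69 (adjusted p = 0.126). Without the 4 libraries numbered 2, elongating minus pachytene over both fractions was 2.65 (adjusted p = 0.000806). The call for elongating minus pachytene over both fractions held under every alternative, with a highest adjusted p of 0.0148. The polysome call was lost on leaving out any 1 of the 6 polysome libraries compared (adjusted p 0.0555 to 0.168). The elongating minus round call was lost on leaving out any 1 of 10 of its 12 libraries, all except round RNP 1 and round polysome 1 (highest adjusted p 0.0968).

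For both Psma6 and Psmf1 the assembled transcripts began at more than 1 annotated first exon, and the forms were not equally present in the groups. This description was added after the values had been seen. The 30 bases of the mm9 (NCBIM37) genome just before each annotated start are shown, since these are the places at which the forms part. They are written in the direction of transcription, and capitals mark the letters CCAAT.
Psma6-001, chr12:56499732-56499761, plus strand: gcagtgctttgggacgtcccgtccccaccg
Psma6-002, chr12:56485179-56485208, plus strand: gCCAATggaattcctgagggttctatccat
Psmf1-001, chr2:151567047-151567076, minus strand: cgcacaaagtcaacaagtatttccggtgcg
Psmf1-006, chr2:151569923-151569952, minus strand: ggaatgtgcacattgctatcacttggcaac
Psmf1-004, chr2:151555697-151555726, minus strand: gaggggtggcatgggaacagaagagcagcc

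The Psma6-002 start lies 14553 bases upstream of that of Psma6-001. The window before Psma6-001 has 70% G and C and that before Psma6-002 has 46.7%. Of the 5 windows, the letters CCAAT occur in that of Psma6-002 alone. Which factors bind there was not measured.

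Transcripts with the first exon of Psma6-001 measured 57.4, 49.0 and 36.8 in pachytene RNP and 63.9, 37.7 and 90.7 in pachytene polysomes. In elongating spermatids they measured 84.3, 78.6 and 0 in RNP and 115, 96.8 and 144 in polysomes. Those with the first exon of Psma6-002 measured 48.3, 0 and 42.5 in pachytene RNP, 29.3, 0 and 0 in pachytene polysomes, 162, 132 and 252 in elongating RNP, and 112, 59.7 and 52.4 in elongating polysomes. The lowest elongating value of the upstream form, 52.4, was above its highest pachytene value, 48.3. In round spermatids the upstream form measured 79.8, 0 and 47.0 in RNP and 32.9, 0 and 21.5 in polysomes. The value of 79.8 lay within the range of the elongating polysomes.

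As a share of the gene's FPKM, the upstream form made up 65.8, 62.7 and 100% in elongating RNP and 49.3, 38.2 and 26.7% in elongating polysomes, which did not overlap. In round spermatids it made up 51.6, 0 and 39.5% in RNP and 33.0, 0 and 24.4% in polysomes. In pachytene spermatocytes it made up 45.7, 0 and 53.6% in RNP and 31.4, 0 and 0% in polysomes. The share was 0 in all 4 libraries numbered 2 of pachytene and round cells. Where the assembler lists only 1 form in a library, as in the third elongating RNP library, a missing form may be a failed assembly, so a value of 0 says only that it was listed at 0.

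Psmf1 had 3 first exons. The start of Psmf1-006 lies 14226 bases and that of Psmf1-001 lies 11350 bases upstream of that of Psmf1-004, which is annotated as a transcript with a retained intron. Transcripts that began like Psmf1-004 measured 147, 111 and 73.7 in elongating RNP and 103, 90.6 and 114 in elongating polysomes. In the pachytene libraries they measured 0 to 14.5. Those with the first exon of Psmf1-006 measured 42.3, 40.5 and 41.2 in elongating RNP and 35.4, 21.4 and 27.0 in elongating polysomes, and at most 9.85 in the pachytene libraries. In round spermatids the Psmf1-004 form measured 53.2, 0 and 22.2 in RNP and 19.1, 0 and 6.27 in polysomes. The Psmf1-006 form measured 59.1, 0 and 20.2 in round RNP, the first of these above every elongating value, and 11.2, 0 and 2.91 in round polysomes. Psmf1-001 went the other way: it was listed at 0 in all 6 elongating libraries and at 8.81, 5.73 and 10.9 in pachytene RNP.

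Most of the Psmf1 signal in elongating spermatids therefore came from the short chain of exons at the 3′ end of the gene. The leading exon chain held 64.4% of the gene's FPKM over all libraries, and chains that match a whole annotated mRNA held 22.9%. Whether the short form encodes a protein was not measured.

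**Figure D5:**
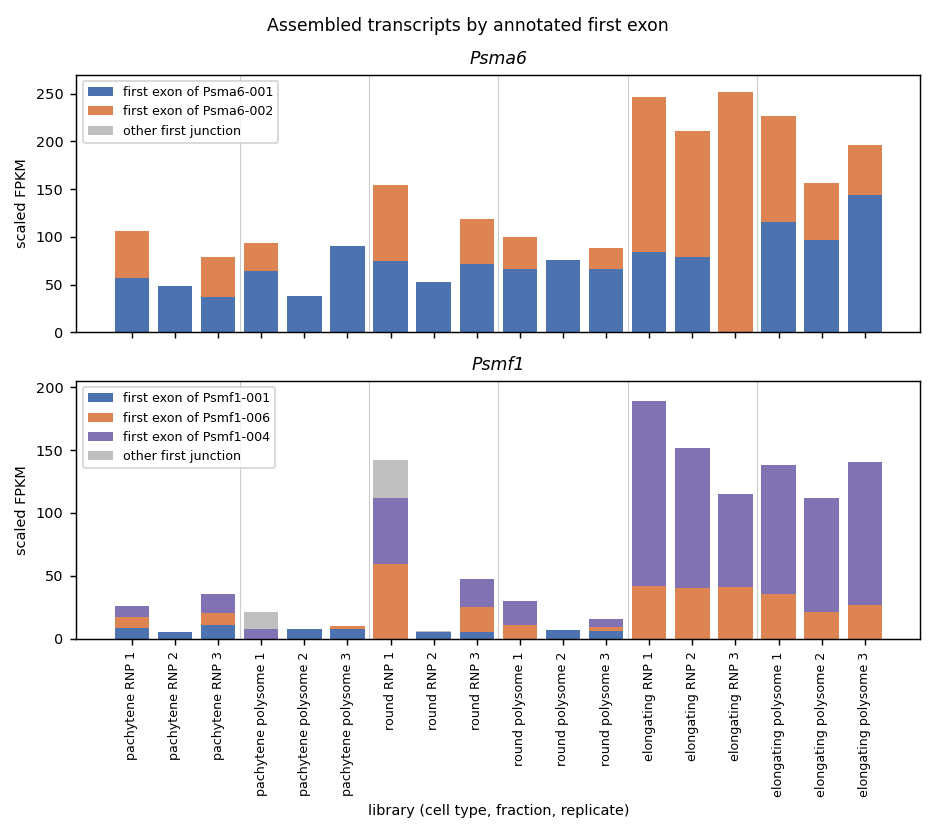
Scaled FPKM of Psma6 (top) and Psmf1 (bottom) in each of the 18 libraries, stacked by the annotated first exon of the assembled transcripts. The Psma6-002 form reaches 52.4 to 252 in the elongating libraries against at most 48.3 in the pachytene ones, and the Psmf1-004 form 73.7 to 147 against at most 14.5. Their highest round values are 79.8 and 53.2, both in round RNP 1.

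The lid subunit Psmd11 (ENSMUSG00000017428.9, mm9 chr11:80242117-80286750, plus strand) changed at the first step. It measured 21.0, 37.7 and 20.3 in pachytene RNP and 29.4, 20.4 and 19.6 in pachytene polysomes. Its values in round spermatids were 89.8, 64.4 and 65.8 in RNP and 97.1, 174 and 83.8 in polysomes. The elongating spermatid libraries held 64.3, 99.2 and 30.4 in RNP and 87.3, 47.2 and 98.7 in polysomes. Every round library was above every pachytene library, and the third elongating RNP library lay within the pachytene range.

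Over both fractions Psmd11 rose by 1.87 from pachytene to round cells (SE 0.33, limma adjusted p = 0.0265) and by 1.42 from pachytene to elongating cells (SE 0.33, adjusted p = 0.00955). The first call was lost on leaving out pachytene polysome 2 or 3, round polysome 1, pachytene RNP 1 or 3, or round RNP 1 or 3 (highest adjusted p 0.0919). Its transcripts were split into pieces in 14 of 18 libraries, and only 4.63% of its FPKM lay in a whole annotated chain. The 14 were every round and elongating library, pachytene RNP 2 and pachytene polysome 1. With length weighting the same differences were 1.08 (adjusted p = 0.0239) and 0.57 (adjusted p = 0.0668). Leaving out the 4 libraries numbered 2 made them 1.86 (adjusted p = 0.037) and 1.52 (adjusted p = 0.0103).

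Psmc2, an ATPase of the base (ENSMUSG00000028932.7, mm9 chr5:21291101-21309605, plus strand), measured 71.6, 39.3 and 54.2 in pachytene RNP and 61.6, 43.6 and 70.3 in pachytene polysomes. In round spermatids it measured 85.8, 37.8 and 79.6 in RNP and 88.5, 62.2 and 80.9 in polysomes. Its values in elongating spermatids were 214, 105 and 121 in RNP and 101, 75.8 and 77.9 in polysomes. It was the member whose elongating RNP values all exceeded the elongating polysome values, with a polysome minus RNP difference there of -0.73 (SE 0.40, limma adjusted p = 0.661). Elongating minus pachytene over both fractions was 0.96 (SE 0.29, adjusted p = 0.0325). The call was lost on leaving out elongating polysome 1, 2 or 3, pachytene polysome 2, elongating RNP 1 or pachytene RNP 2 (highest adjusted p 0.085), and under quantile normalization the difference was 0.27 (adjusted p = 0.461). Leaving out the 4 libraries numbered 2 made it 0.75 (limma adjusted p = 0.0333). The Psmc2 value of 214 in elongating RNP 1 came from a split transcript. With length weighting the elongating values were 67.8, 65.2 and 71.1 in RNP and 49.9, 48.4 and 42.0 in polysomes. The length-weighted pachytene values were 18.5 to 33.0.

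Psmg1 and Psmg3 belong to the chaperones that build the alpha ring. Psmg1 (ENSMUSG00000022913.8, mm9 chr16:96201540-96212567, minus strand) measured 20.5, 21.3 and 72.4 in pachytene RNP and 27.7, 33.1 and 32.1 in pachytene polysomes. The round spermatid libraries held 8.16, 27.4 and 14.2 in RNP and 51.5, 32.3 and 64.3 in polysomes. In elongating spermatids it measured 6.22, 8.12 and 8.39 in RNP and 11.1, 16.5 and 36.5 in polysomes. The fractions did not overlap in either kind of spermatid and did so in pachytene cells. Psmg1 was split into pieces in 4 libraries: pachytene RNP 3, round polysome 1 and 3 and elongating polysome 3. With length weighting its fractions overlapped in round spermatids as well. Psmg1 fell by 1.31 on the log2 scale from pachytene to elongating cells over both fractions (SE 0.39, limma adjusted p = 0.0311). The call was lost on leaving out elongating polysome 1 or 2, pachytene polysome 2 or 3, elongating RNP 1, 2 or 3 or pachytene RNP 3 (highest adjusted p 0.0811), and without the 4 libraries numbered 2 the difference was -1.42 (adjusted p = 0.0291).

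Psmg3 (ENSMUSG00000029551.6, mm9 chr5:140299548-140302797, minus strand) measured 9.92, 6.04 and 0 in pachytene RNP and 5.71, 11.2 and 7.57 in pachytene polysomes. Its values in round spermatids were 3.75, 8.48 and 2.78 in RNP and 1.80, 7.18 and 3.48 in polysomes. It was listed at 0 in all 3 elongating RNP libraries and at 1.68, 2.04 and 1.22 in elongating polysomes. The fitted difference over both fractions was -1.92 (SE 0.52, limma adjusted p = 0.0202), a size that depends on the pseudocount because of the values at 0. The call was lost without pachytene polysome 2 or pachytene RNP 2 (highest adjusted p 0.0545) and without the 4 pachytene and round libraries numbered 2, where the difference was -1.63 (adjusted p = 0.063).

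The activators bind the ends of the core in place of the cap. Psme1 and Psme2 form 1 activator together, which interferon induces, and ranged from 2.47 to 75.6 and from 4.0 to 46.1. Their highest values were both in the second round polysome library, 1 of the 5 with high Sertoli sums, whose part was not tested. Elongating minus pachytene over both fractions was -0.60 for Psme1 (SE 0.60, limma adjusted p = 0.5) and -1.18 for Psme2 (SE 0.55, adjusted p = 0.147).

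Psme3, which forms the nuclear activator, measured 13.2, 21.7 and 7.96 in pachytene RNP and 31.3, 82.6 and 21.0 in pachytene polysomes. In round spermatids it measured 14.6, 36.2 and 14.6 in RNP and 208, 34.8 and 29.5 in polysomes. The elongating spermatid libraries held 39.0, 34.4 and 82.3 in RNP and 42.2, 37.1 and 36.3 in polysomes. The values of 208 and 82.6 came from split transcripts, and with length weighting they were 32.1 and 23.4. Elongating minus pachytene over both fractions was 0.90 (SE 0.49, limma adjusted p = 0.207), and with length weighting it was 1.18 (adjusted p = 0.000882). It too had more than 1 first exon: transcripts that began like Psme3-001 were listed at 0 in all 3 elongating RNP libraries and at 20.4, 12.3 and 11.6 in elongating polysomes. Those that began like Psme3-003 measured 39.0, 34.4 and 82.3 in elongating RNP and 0 to 7.70 in the pachytene libraries. They measured 54.4, 0 and 23.1 in round polysomes and 21.8, 24.7 and 24.7 in elongating polysomes.

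Members with larger differences between pachytene and elongating cells that did not pass are given as values. The base scaffold Psmd1 had -1.35 over both fractions (SE 0.85, limma adjusted p = 0.276), and its levels ranged from 11.4 to 297. The beta subunit Psmb3 had -1.62 in polysomes (SE 0.56, adjusted p = 0.113). The lid enzyme Psmd14 measured 8.22 to 13.1 in the 6 elongating libraries, against 8.44 to 71.2 in the others. Psmb10 had -2.03 from round to elongating RNP (SE 0.92, adjusted p = 0.425), and Psma2 had -1.41 from round to elongating polysomes (SE 0.61, adjusted p = 0.339).

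Other genes of the ubiquitin and proteasome pathway were drawn from a list of 30, of which 27 were tested. In the fraction comparisons and those of neighbouring stages within a fraction, 0 were called, and their median polysome minus RNP difference over the 3 cell types was 0.03, against 0.12 for all genes. Between elongating and pachytene cells over both fractions, 3 were called higher and 2 lower, against the same 10.3% and 6.08% of all genes. The 3 were Ufd1l, a cofactor of the ATPase Vcp (1.55, limma adjusted p = 0.00548), its partner Nploc4 (0.89, adjusted p = 0.0356) and the glycanase Ngly1 (1.58, adjusted p = 0.0372). Vcp itself, named after its value was seen, had a difference of -0.83 (SE 0.52, limma adjusted p = 0.277). The 2 were Pomp, which helps assemble the core (-1.05, adjusted p = 0.0107), and the small heat shock protein Hspb1 (-1.71, adjusted p = 0.0318). Psme4, the activator known for its part in histone loss in spermatids, had a difference of 1.21 (adjusted p = 0.123).

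The members had features in common that the rule did not use. Taking the longest annotated mRNA of each gene, the 44 members had a median 3′ UTR of 255.5 bases (quartiles 105.5 and 537), against 916 over 13686 tested coding genes. Of the 44, 37 (84.1%) were below that median. The range within the members was 44 to 2822 bases.

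Promoters in RefSeq (GRCm38.p6; 250 bases before to 50 after the start) were given for 39 members, with 42 promoters. The antioxidant response element to which Nfe2l1 binds, the factor known for inducing proteasome genes, was searched as TGACNNNGC on both strands and occurred in 5 of 42 (11.9%), against 12.4% of 32851 promoters. The cyclic AMP response element, searched as TGACGTCA, occurred in 0 of 42, against 1.79%. The letters CCAAT occurred in 14 of 42 (33.3%), against 37.4%. The shares of the members were close to those of all promoters for the first and the last of these motifs. At 1.79% of all promoters, the cyclic AMP element is too rare for its absence from 42 to set the members apart.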

How the data were processed

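The 18 large RNA libraries were grouped by cell type and fraction from their labels. Members, gene lists and tests were chosen with earlier results of these data known. The authors trimmed the reads, aligned them to mm9 with TopHat and ran Cufflinks on 1 library at a time; versions are not given in the sources used here. The deposited values are FPKM, given for every transcript that was assembled, and libraries had not been put on a common scale. Per the labels the library kit was stranded. A transcript that was not assembled is missing from its library, so a gene without one is listed at 0. Read counts and the sequencing depth were not analysed here, so no counting error is given; coverage per unit of FPKM ranged from 1.20 to 2.26 between libraries.

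FPKM was summed over the transcripts that share a splice junction with a gene of the GENCODE vM1 annotation. These made up 1.05 to 11.1% of a library's FPKM, so libraries were scaled by median ratios over 7034 genes (log2 factors -1.08 to -0.22 in RNP, 0.30 to 0.62 in polysomes). Genes that reached a deposited FPKM of 1 in 3 or more libraries entered a limma 3.58.1 (R 4.3.3) fit on log2(scaled FPKM + 1), with 6 groups, trended variance and Benjamini-Hochberg adjustment at 0.05; tables were made in Python 3.11.15. The procedure was tested on simulated data. The share of Psma8 was compared by exact permutation (scipy 1.17.1).

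Of the 13 comparisons of groups, 8 were planned and 5 added after seeing the data. Named were Psma7, Psma8, the catalytic subunits, activators and inhibitor, each called member, up to 3 members per direction with the largest differences, the highest and lowest of each class, and called genes of the list of other pathway genes with Psme4. Samples with the same number in round RNP and round polysome deviated together (correlations 0.525, 0.659 and 0.198), as did pachytene and round RNP (0.377, 0.596 and 0.139); elsewhere the numbers did not pair the samples by this check, and no source says what a number shares. Alternatives were the deposited scale, quantile normalization, other filters, another pseudocount, a replicate block, length-weighted transcript values, fewer libraries, and each library left out.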

Additional observations from a re-analysis of the deposited data

How the results depend on the processing

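Counts of called members moved with the scaling, the assembly, the replicate block and the libraries numbered 2. The share of all genes called, given for some counts in parentheses as higher and lower, moved with them. The causes were not tested. Counts without such a share cannot be set against genes at large, as for quantile normalization, the pseudocount of 0.1 and each library left out. On FPKM as deposited, where the median polysome minus RNP difference of all genes over the 3 cell types was 0.76 against 0.12 after scaling, 33 members were called over the 3 cell types (all genes: 30.2% higher, 0.445% lower), 9 in pachytene (6.21% and 0.164%) and 2 in elongating cells (1.38% and 0.192%), and 0 for elongating minus pachytene in RNP. With quantile normalization 0 were called between fractions over the 3 cell types, 1 for elongating minus pachytene in polysomes, 2 for round minus pachytene and 0 for elongating minus round over both fractions. A pseudocount of 0.1 left 1 for elongating minus pachytene in polysomes.

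With length-weighted values 0 were called between fractions over the 3 cell types (0.88% and 1.38%), 1 for round minus pachytene in polysomes (0.0349% and 0.342%), 1 for elongating minus round in RNP (0.726% and 0.0628%), 1 for the same in polysomes (0.949% and 0.0279%), 7 for elongating minus pachytene in RNP (5.70% and 2.04%) and 11 over both fractions (16% and 11%), 2 for round minus pachytene (0.356% and 0.935%) and 2 for elongating minus round (5.86% and 0.677%) over both fractions. The replicate block gave 1 call for elongating minus round in polysomes (2.83% and 0.246%), 5 and 4 for elongating minus pachytene in RNP (6.43% and 2.01%) and polysomes (6.67% and 3.04%), 11 over both fractions (13.9% and 9.82%), and 3 for elongating minus round over both fractions (7.55% and 2.42%); it changed no count in the 2 comparisons where the numbers paired the samples.

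Without both round libraries numbered 2, calls were 5 between fractions over the 3 cell types (2.90% and 1.73%), 5 and 6 for elongating minus pachytene in RNP (7.71% and 2.79%) and polysomes (8.57% and 4.83%), 3 for round minus pachytene (2.16% and 1.41%) and 0 for elongating minus round (0.849% and 0.089%) over both fractions. Without all 4 pachytene and round libraries numbered 2, chosen after seeing the data, they were 7 (6.90% and 3.57%), 4 (4.62% and 1.42%), 5 (6.61% and 4.38%), 2 (1.05% and 1.07%) and 2 (2.03% and 0.342%) in the same order, and 1 for elongating minus round in polysomes (0.65% and 0.349%). With only the 6 libraries compared, they were 4 in the elongating fraction comparison (1.98% and 0.623%) and 4 for elongating minus pachytene in polysomes (8.58% and 6.19%).

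With each library left out, calls ranged from 1 to 4 between fractions over the 3 cell types (4 without round RNP 2), from 0 to 1 for elongating minus round in RNP (1 without pachytene RNP 3) and in polysomes (1 without round RNP 2), from 0 to 5 and 0 to 4 for elongating minus pachytene in RNP and polysomes (highest without round RNP 2), from 4 to 9 for elongating minus pachytene, 0 to 1 for round minus pachytene and 0 to 2 for elongating minus round over both fractions. The share of Psma8 for elongating minus round ranged from -0.919 to 19.2 points in RNP and from -2.99 to 15.6 points in polysomes, at the lower end without the round library numbered 2, and was -0.919 and -2.99 without both or all 4 libraries numbered 2. No called member reversed its direction under an alternative. Without counts, the error of low values is not known.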
